A study of Mus musculus with 6 samples.

Results

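The phagocyte NADPH oxidase is described here by 7 genes picked by name: the membrane pair Cybb and Cyba, the cytosolic regulators Ncf1 and Ncf4, the small GTPases Rac1 and Rac2, and Nox4, a related oxidase. The deposited table listed 5 of the 7, with 7 transcripts, out of 11815 genes and 23115 transcripts in all. Ncf4 and Nox4 were not analysed here. The libraries came from osteal macrophages (Omacs), the macrophages that line bone surfaces, of female BALB/c mice, and the question was how these cells differ after loss of ovarian hormones. In the OVX group both ovaries were removed at 10 weeks of age, and the sham group had control surgery. Cells were taken from femurs and vertebrae 4 weeks after surgery and sorted on CD11b with F4/80 or CD68. There were 3 OVX and 3 sham bulk RNA-seq libraries. The study used 20 mice per condition for the isolation, and the sources used here do not say how they were divided over the libraries. The p-values therefore reflect the spread between these libraries alone, which may be technical. The labels give no treatment beside the surgery, and ovariectomy takes away estrogen together with the other ovarian hormones.

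The phagocyte oxidase passes electrons from NADPH across a membrane to oxygen and so makes superoxide, the source of the respiratory burst of neutrophils and macrophages. Its catalytic core, flavocytochrome b558, is a dimer of gp91phox (Nox2), encoded by Cybb, and p22phox, encoded by Cyba. On stimulation the cytosolic proteins p47phox (Ncf1), p67phox and p40phox (Ncf4) move to the membrane together with a Rac GTPase in its GTP-bound form. Rac2 is found mainly in blood cells, whereas Rac1 is made in nearly all cells and also drives actin remodelling. The oxidase is most abundant in neutrophils, and in bone it is also known from osteoclasts and macrophages.

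No member passed the test, and the members did not all lie on the same side of sham. Values are TPM (a share of the RNA corrected for transcript length), summed over the listed transcripts of a gene and brought to a common scale between libraries (scaled TPM). A gene entered the test when its scaled TPM averaged 1 or more, and limma was run on log2(scaled TPM + 1), a scale that understates the change of low genes. All 5 listed members passed that filter. Limma called 0 of 5 members at an adjusted p under 0.05 (Benjamini-Hochberg over 8184 genes), against 1 gene called higher, the predicted gene Gm10132 (0.0122% of those tested, named after its value was seen), 0 called lower (0.0%) and 0.0122% in either direction. At an unadjusted p under 0.05 there were 2 of 5 members, Ncf1 and Cyba, both higher in OVX, against 3.46% of all genes higher, 3.42% lower and 6.88% in either direction. These shares of all genes stand on 283 genes higher and 280 lower, and the split moved with the scaling, to 127 higher and 496 lower on the TPM as deposited. In 3 members, Ncf1, Cyba and Cybb, every OVX library lay above every sham library, as in 7.42% of all genes. In 1 member, Rac1, every OVX library lay below every sham library, as in 7.8% of all genes. For either direction the share of all genes was 15.2%. The log2 fold change was above 0 in 4 of 5 members and in 48.4% of all genes, with a median of 0.46 over the members and -0.01 over all genes tested. On the TPM as deposited the same 3 genes lay above sham without overlap and the same 1 below it, where 3.6% of all genes lay higher and 13.0% lower without overlap. Leaving out OVX replicate 3, limma called 9 of 8194 genes (0.11%), and with a weight for each library it called 27 of 8184 (0.33%), in both cases with no member among them.

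**Figure D1:**
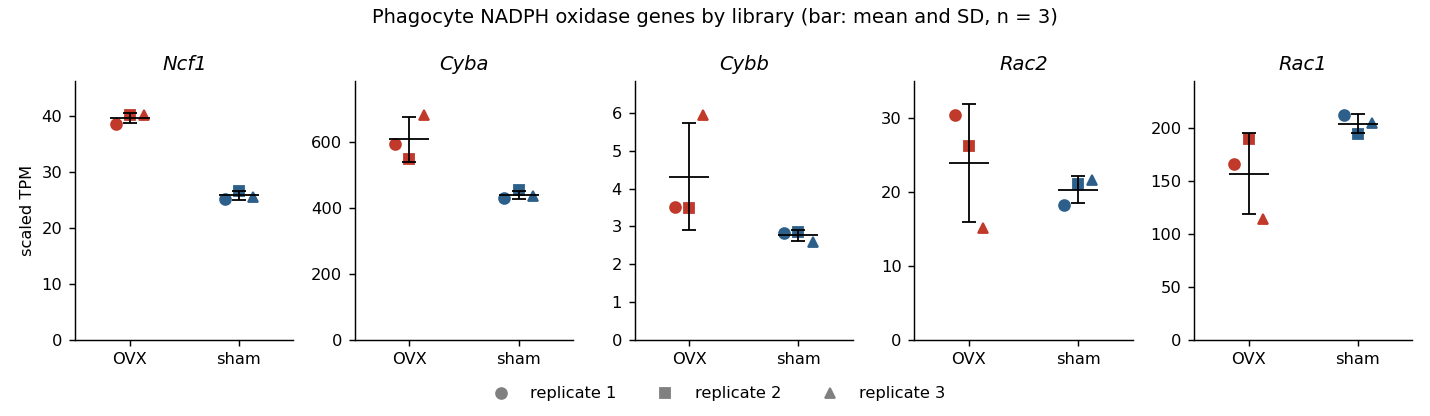
Scaled TPM (linear axes from 0) of the 5 listed NADPH oxidase genes in each library, OVX left of sham, where points are libraries and bars are means with SD (n = 3 each). Ncf1, at 38.6 to 40.3 in OVX and 25.1 to 26.7 in sham, has the tightest OVX group relative to its mean, and Rac2 overlaps between the groups.

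The libraries stood apart in one respect. The listed transcripts held 66.3% of the TPM scale in OVX replicate 3, against 81.2% and 83.0% in OVX replicates 2 and 1 and 80.5% to 82.7% in sham. OVX replicate 3 also had the lowest correlation with the other libraries (Pearson r across genes, 0.936 to 0.951, against up to 0.982 among the others), and limma's library weights gave it 0.172 where the others had 0.907 to 2.68. Results are therefore also given without it. Of the sort and identity markers, Itgam (CD11b) was at 18.8, 18.5 and 28.2 scaled TPM in OVX, against 11.3, 13.6 and 10.8 in sham, and Cd68 at 41.2, 43.1 and 36.3 in OVX, against 32.4, 37.9 and 33.5 in sham. Adgre1, which encodes F4/80, ranged from 0.467 to 1.05 in OVX and 0.640 to 1.16 in sham, under the level for testing, and Csf1r was listed at 0 in all 6 libraries. A bulk value cannot tell fewer cells of a type from less RNA per cell.

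The sequences just upstream of the RefSeq starts of the membrane pair and of Ncf1, the listed members with a promoter entry, are shown. They are the 100 bases before the annotated start, from RefSeq on GRCm38.p6, 5′ to 3′ on the minus strand that carries each gene. Of the 5 listed members these 3 had an entry, and Rac1 and Rac2 are named only. The Cybb stretch borders the start of transcript Cybb-201 (chrX:9469324) and lies inside the span annotated for the whole gene (chrX:9435252-9487771). The capitals in the Cybb sequence mark a CCAAT box.
Ncf1 (chr5:134229626-134229725): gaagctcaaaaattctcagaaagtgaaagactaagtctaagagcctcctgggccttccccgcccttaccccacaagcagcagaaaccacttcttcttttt
Cyba (chr8:122432941-122433040): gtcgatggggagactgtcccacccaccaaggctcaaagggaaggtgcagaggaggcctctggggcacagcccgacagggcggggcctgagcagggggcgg
Cybb (chrX:9469325-9469424): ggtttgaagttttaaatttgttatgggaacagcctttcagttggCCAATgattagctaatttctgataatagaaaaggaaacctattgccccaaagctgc

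Windows of 250 bases before to 50 after the start were searched on both strands for 3 motifs, which do not overlap one another in these windows. The CCAAT box (CCAAT) was found in Cybb, at bases -56 to -52, and is held by 37.4% of all 32851 promoters searched. The core of a binding site of PU.1, the myeloid transcription factor, searched as GAGGAA, was found in Cybb on the opposite strand at bases 10 to 15 after the start, and is held by 28.3% of promoters. The full palindrome of the estrogen response element (GGTCANNNTGACC) was not among the letters of the 3 windows and is held by 0.07% of promoters. A match is a description of letters only.

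Cybb, the catalytic subunit, was the least abundant listed member. The gene (ENSMUSG00000015340) lies on the minus strand at chrX:9435252-9487771 of GRCm38, and 1 of its 5 GENCODE transcripts, Cybb-201, was listed. It was at 3.52, 3.48 and 5.95 scaled TPM in OVX replicates 1, 2 and 3, against 2.84, 2.86 and 2.60 in sham replicates 1, 2 and 3. Every OVX library lay above every sham library, OVX replicate 3 by far the most. The means were 4.32 ± 1.42 in OVX and 2.76 ± 0.145 in sham (SD, n = 3 each), a ratio of 1.56, with a log2 fold change of 0.47 (SE 0.22, limma, Benjamini-Hochberg adjusted p = 0.709). It was 0.26 when OVX replicate 3 was left out.

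Cyba encodes p22phox, which stabilises gp91phox and docks the cytosolic subunits. The gene (ENSMUSG00000006519, chr8:122424776-122432930, minus strand) had 1 of 3 GENCODE transcripts listed, Cyba-201, and was the most abundant member, at rank 178 of 8184 genes. Its level was 595, 548 and 682 scaled TPM in OVX, against 429, 453 and 437 in sham. The lowest OVX library was above the highest sham library, and the sham libraries lay much closer together, with a coefficient of variation of 2.86% against 11.2% in OVX. Means were 608 ± 68.2 in OVX and 439.8 ± 12.6 in sham (SD, n = 3 each), a ratio of 1.38. The log2 fold change was 0.46 (SE 0.14, unadjusted p = 0.0107, limma adjusted p = 0.606), and 0.38 without OVX replicate 3 (adjusted p = 0.236). Both subunits of the membrane pair thus lay above sham. Their ratio within a library, Cybb to Cyba, overlapped between the groups, with a log2 difference of 0.14 between OVX and sham (two-sided exact permutation p = 0.7, Benjamini-Hochberg p = 0.744 over 17 ratios, for which 3 against 3 libraries cannot go below p = 0.1).

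Ncf1 encodes p47phox, the organizer that carries the cytosolic complex to p22phox after phosphorylation, and had the smallest p of the members. The gene (ENSMUSG00000015950) lies at chr5:134220053-134229625 on the minus strand, and 1 of its 7 GENCODE transcripts was listed, Ncf1-202, with 11 exons. It was at 38.6, 40.2 and 40.3 scaled TPM in OVX, against 25.1, 26.7 and 25.6 in sham. The libraries of each group lay within a few percent of one another (coefficient of variation 2.39% in OVX and 3.13% in sham), and the groups were far apart. Means were 39.7 ± 0.948 in OVX and 25.8 ± 0.808 in sham (SD, n = 3 each), a ratio of 1.54. The log2 fold change was 0.60 (SE 0.12, unadjusted p = 0.00167, rank 29 of 8184), and the limma adjusted p was 0.410, so it did not pass. The closeness of the OVX libraries depended on the scaling: as deposited, Ncf1 was at 38.51, 40.43 and 33.87 TPM in OVX and 26.24, 26.55 and 29.21 in sham, still without overlap, with a log2 fold change of 0.44. Leaving out OVX replicate 3 gave a log2 fold change of 0.59 (limma adjusted p = 0.137).

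Rac2, the haematopoietic Rac, was the member least separated between the groups. The gene (ENSMUSG00000033220, chr15:78559167-78572783, minus strand) had 1 of 3 GENCODE transcripts listed, Rac2-201. Its level was 30.5, 26.3 and 15.1 scaled TPM in OVX, against 18.2, 21.1 and 21.7 in sham. OVX replicates 1 and 2 were the highest of the 6 libraries and OVX replicate 3 the lowest, so the groups overlapped fully. Means were 24.0 ± 7.95 in OVX and 20.3 ± 1.83 in sham (SD, n = 3 each), with a log2 fold change of 0.18 (SE 0.26, limma adjusted p = 0.860). One library set the value: the log2 fold change was 0.46 without OVX replicate 3 and -0.020 without OVX replicate 1.

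Rac1, the Rac made in nearly all cells, was the only listed member with a mean lower in OVX. The gene (ENSMUSG00000001847) lies at chr5:143503634-143528036 on the minus strand, and 3 of its 4 GENCODE transcripts were listed. Their sum was 167, 189 and 115 scaled TPM in OVX, against 213, 195 and 205 in sham. All OVX libraries lay below all sham libraries, OVX replicate 2 only just, and OVX replicate 3 far below. Means were 157 ± 38.4 in OVX and 204 ± 8.99 in sham (SD, n = 3 each), a ratio of 0.768, with a log2 fold change of -0.41 (SE 0.20, limma adjusted p = 0.715). With OVX replicate 3 left out it was -0.20.

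The 3 Rac1 transcripts differ in structure, and most of the gene's TPM stood on one that codes for no protein. That transcript, Rac1-204, is the shortest. With TPM multiplied by transcript length, it made up 21.1% to 25.7% of the gene in OVX and 23.4% to 28.3% in sham. Rac1-201 codes for the usual Rac1 protein (6 exons, 4159 bases, 576 of them coding). Rac1-202 (7 exons, 2325 bases, 633 coding) has one more coding exon, of 57 bases, the counterpart of the exon known from the human splice form RAC1B. Rac1-204 (6 exons, 585 bases) is annotated as a processed transcript without a coding region, and starts in an exon of its own, of 126 bases, within intron 1 of Rac1-201. The stretches that set the transcripts apart are shown, read from the GENCODE M21 transcript sequences (GRCm38), 5′ to 3′ on the gene's strand. Capitals mark the extra exon of Rac1-202 at chr5:143509597-143509653, between 20 bases of each neighbouring exon, and the exon of Rac1-204 lies at chr5:143518057-143518182.
Rac1-202 with the extra exon: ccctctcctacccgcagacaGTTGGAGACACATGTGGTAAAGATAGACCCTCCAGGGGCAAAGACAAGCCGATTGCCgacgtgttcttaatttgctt
Rac1-201 and Rac1-204 at the same junction: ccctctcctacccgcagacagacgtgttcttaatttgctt
Rac1-204 first exon: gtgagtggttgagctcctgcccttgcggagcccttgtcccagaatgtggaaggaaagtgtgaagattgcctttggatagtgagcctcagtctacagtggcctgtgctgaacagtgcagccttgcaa

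The noncoding Rac1-204 was at 94.8, 116.5 and 60.5 scaled TPM in OVX, against 137, 122 and 120 in sham, again with no overlap, and made up 52.8% to 61.5% of the Rac1 TPM in OVX and 58.7% to 64.6% in sham. Its means were 90.6 ± 28.3 in OVX and 127 ± 9.30 in sham (SD, n = 3 each), with a log2 fold change of -0.53 (SE 0.25, limma adjusted p = 0.835 over 11907 transcripts). Rac1-202 was at 50.2, 57.9 and 51.3 in OVX, against 59.6, 57.1 and 66.1 in sham, which overlap (log2 fold change -0.19, SE 0.14, limma adjusted p = 0.854). Rac1-201, the form with the usual protein, spread most widely, at 21.7, 15.0 and 2.71 scaled TPM in OVX, against 15.7, 15.3 and 18.6 in sham. OVX replicate 3 was far below every other library and OVX replicate 1 the highest, and the log2 fold change was -0.66 (SE 0.66, limma adjusted p = 0.854). In OVX replicate 3 Rac1-202 made up 44.8% of the Rac1 TPM and Rac1-201 2.37%, against 30.1% and 13.0% in OVX replicate 1. The sum of the 2 coding transcripts was 71.9, 72.9 and 54.1 in OVX and 75.3, 72.4 and 84.7 in sham, and these overlap. With coding transcripts alone in the fit across all genes the Rac1 log2 fold change was -0.23 (limma adjusted p = 0.766). Of the 3 transcripts only the noncoding one separated the groups without overlap, as the gene's sum did. The coding sum also averaged lower in OVX, at 66.3 ± 10.6 against 77.5 ± 6.44 in sham (SD, n = 3 each). Of the 585 bases of Rac1-204, 459 (78.5%) lie in exons that Rac1-201 and Rac1-202 hold too, so that how reads were divided between the 3 bears on each value. That division was not tested. Over all transcripts limma called 0 (0.0%) in either direction, 5.59% were at an unadjusted p under 0.05, 6.58% lay higher in every OVX library and 6.8% lower.

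**Figure D2:**
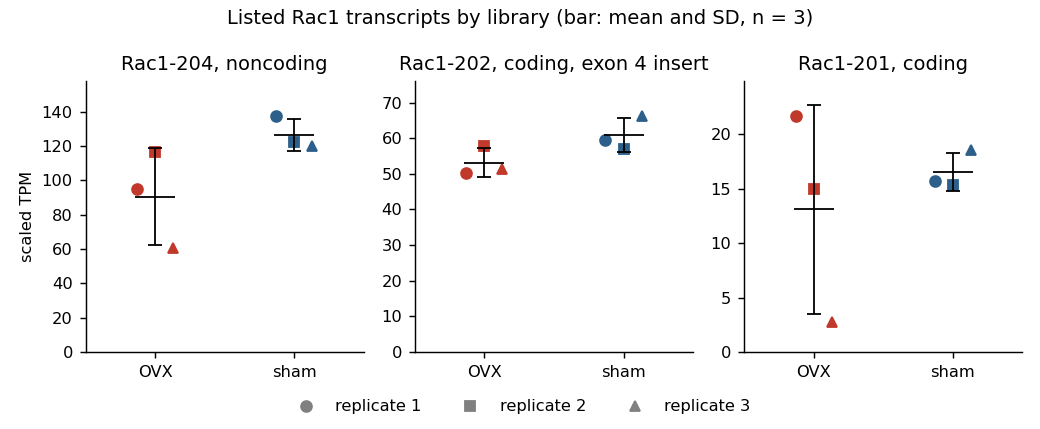
Scaled TPM of the 3 listed Rac1 transcripts in each library, OVX left of sham, with means and SD (n = 3 each; linear axes from 0). The noncoding Rac1-204 has the highest values and no overlap between the groups, whereas Rac1-202 and Rac1-201 overlap, with OVX replicate 3 at 2.71 for Rac1-201.

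The balance of the 2 Rac genes was compared within each library, which does not depend on the scaling between libraries. Rac2 to Rac1 was 0.183, 0.139 and 0.132 in OVX, against 0.0857, 0.108 and 0.106 in sham. All OVX libraries were higher, by 0.59 on the log2 scale, a ratio of 1.51 (two-sided exact permutation p = 0.1, the smallest possible, Benjamini-Hochberg p = 0.243 over 17 ratios). With the coding Rac1 transcripts alone, the ratio was 0.424, 0.361 and 0.279 in OVX and 0.242, 0.291 and 0.256 in sham. The groups then overlapped, with a log2 difference of 0.42 (two-sided exact permutation p = 0.2). The coding sequences of Rac1-201 and Rac2-201 are identical at 444 of 576 positions (77.1%), with a longest identical run of 29 bases, and reads that could be assigned to either gene were not examined.

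Markers of other cells the sort could hold were read in the same libraries, and the members were also set against the neutrophil list. The neutrophil list (11 of 20 genes listed; S100a8, S100a9, Ngp and Lcn2 the most abundant) summed to 135737 ± 5152 scaled TPM in OVX, ranging from 132004 to 141615, and to 79866 ± 9837 in sham, ranging from 69692 to 89327 (SD, n = 3 each). S100a8 and S100a9, the calprotectin pair, made up 94.8% to 97.4% of that sum in OVX and 94.7% to 95.8% in sham. Of its 10 tested genes 9 were above 0 in log2 fold change (median 0.40), against 48.4% of all genes. Limma called 0 of the 10, against 0.0122% of all genes. With OVX replicate 3 left out it called 1 gene of the list, against 9 of all 8194 genes (0.11%). S100a8, S100a9, Ngp and Mmp8 were at an unadjusted p under 0.05 (limma) and did not overlap between the groups. The other 6 overlapped, namely Ctsg (log2 fold change 0.73), Ltf (0.26), Lcn2 (0.21), Elane (0.21), Mmp9 (0.11) and Prtn3 (-0.07). Lcn2 was at 1882, 1742 and 762 scaled TPM in OVX, against 1139, 1196 and 1173 in sham. Ltf was at 130, 128 and 58.6 in OVX, against 82.4, 78.2 and 87.8 in sham. Over all genes 3.46% were higher at an unadjusted p under 0.05 (limma), and 7.42% lay higher without overlap. Mpo, a defining granule gene, ranged from 0.795 to 0.922 in OVX and from 0.479 to 1.51 in sham. The monocyte and macrophage list (11 of 20 listed, with Cd14, Lgals3, Lyz2 and Fcgr3 the most abundant) summed to 1573 to 2060 in OVX and 1534 to 1604 in sham. Of its tested genes 8 of 8 were above 0, against 48.4% of all genes, with a median log2 fold change of 0.25. In every OVX library 4 of the 8 lay higher and 0 lower, as did 7.42% and 7.8% of all genes. At an unadjusted p under 0.05 (limma) 2 of the 8 were higher, against 3.46% of all genes. Of the osteoclast list 2 of 7 genes were listed, both below 0. Acp5, the acid phosphatase of osteoclasts, was at 20.5, 15.0 and 8.84 in OVX, against 21.5, 24.5 and 24.3 in sham, lower in every OVX library (log2 fold change -0.70, SE 0.28, limma adjusted p = 0.697), and Ctsk overlapped. The stromal and bone forming list (13 of 16 listed) summed to 9652 to 13717 in OVX and 13998 to 14829 in sham, of which Dcn, a matrix proteoglycan, made up 98.5% to 99.2%. Of its 11 tested genes 4 lay lower and 1 higher in every OVX library, as did 7.8% and 7.42% of all genes, and 6 were above 0. The 13 mitochondrially encoded genes summed to 63294 ± 8276 in OVX and 79328 ± 3930 in sham. The part of these differences in the members' values was not tested.

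Within libraries, no member had a mean ratio to the summed neutrophil list that was higher in OVX, a sum that stands almost entirely for S100a8 and S100a9. With all libraries in the fit, the log2 fold changes of Ncf1, Cyba and Cybb were larger than the list's median of 0.40. Without OVX replicate 3 the order was reversed: the list's median was 0.63, against 0.59 for Ncf1, 0.38 for Cyba and 0.26 for Cybb. The Ncf1 ratio to that list differed by -0.15 on the log2 scale (exact permutation p = 0.3, Benjamini-Hochberg p = 0.392), the Cyba ratio by -0.31 (p = 0.2, adjusted 0.378) and the Cybb ratio by -0.17 (p = 0.5, adjusted 0.567), all overlapping. Rac2 and Rac1 lay lower relative to the list in every OVX library, by -0.59 and -1.18 (both exact permutation p = 0.1, Benjamini-Hochberg p = 0.243). Relative to Itgam, a marker of the sort, the differences were -0.23 for Ncf1 (exact permutation p = 0.4), -0.26 for Cybb (p = 0.2) and -0.67 for Rac2 (p = 0.3), with overlap, and -0.39 for Cyba and -1.26 for Rac1 without overlap (both p = 0.1). Relative to Cd68 the order was another one. Ncf1 to Cd68 was 0.937, 0.933 and 1.11 in OVX and 0.776, 0.704 and 0.765 in sham, higher in every OVX library by 0.40 on the log2 scale (exact permutation p = 0.1, Benjamini-Hochberg p = 0.243). Cyba and Cybb to Cd68 differed by 0.25 and 0.38 with overlap (both exact permutation p = 0.3), Rac2 by -0.04 (p = 0.9), and Rac1 by -0.63 without overlap (p = 0.1). Whether Ncf1, Cyba and Cybb stood above or below sham relative to a marker thus differed between the markers. Rac1 was lower in OVX relative to all 3, also with its coding transcripts alone (-1.09, -0.45 and -1.01 relative to Itgam, Cd68 and the neutrophil list). Itgam (log2 fold change 0.80) and the summed neutrophil list were themselves higher in every OVX library. The separation of Rac1 relative to these markers was therefore fixed in advance and adds nothing to its own values. For the coding transcripts (-0.23 in the fit) the ratios hold the markers' differences too.

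**Figure D3:**
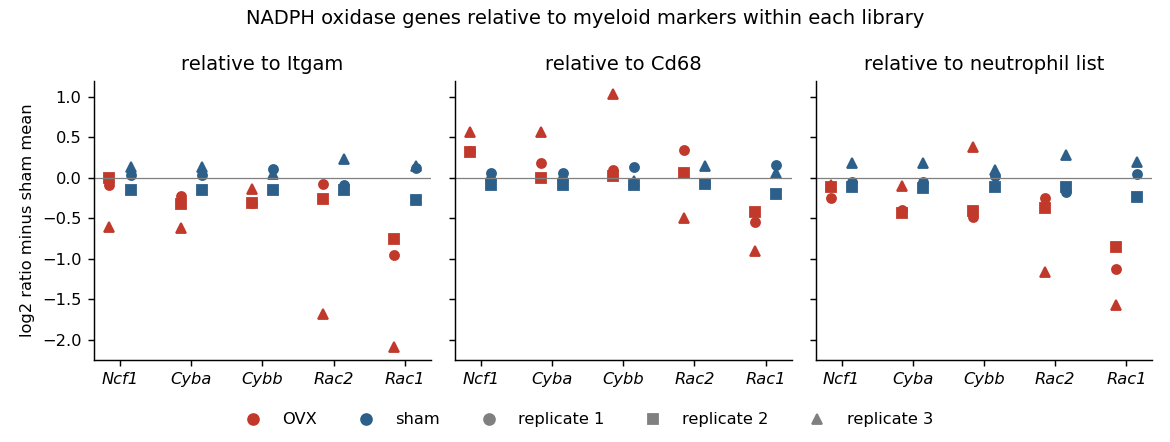
Log2 ratio of each listed member to Itgam, to Cd68 and to the summed neutrophil list in each library, less the sham mean of that ratio. OVX points stand left of sham points, and marker shapes give the replicate number. For Rac1 all OVX points lie below all sham points in the 3 panels, and for Ncf1 they lie above them only relative to Cd68.

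The genes around the oxidase were taken from lists written with earlier results of these data in view, and are described by counts and medians only. Limma called 0 genes of any of them, and outside the receptors and kinases 0 were at an unadjusted p under 0.05. Of the oxidase relatives and cofactors (6 of 17 listed), 4 were tested, with 1 above 0 and a median log2 fold change of -0.10. Over all genes 48.4% were above 0, with a median of -0.01. Without OVX replicate 3 the list had 2 above 0 and a median of 0.020. On TPM as deposited its median was -0.26, against -0.15 over all genes. The list includes Rap1a, a GTPase that copurifies with flavocytochrome b558, whose scaled TPM averaged 32.2 ± 5.10 in OVX and 30.5 ± 2.94 in sham. Prdx6, a peroxiredoxin with phospholipase activity that acts on the oxidase, averaged 278 ± 58.7 in OVX and 294 ± 1.93 in sham, and both overlapped between the groups. Cybc1, the chaperone needed for gp91phox, and Hvcn1, the proton channel that balances the electron current, were listed below the level for testing.

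The receptors and kinases that switch the oxidase on had a median above 0. Of 16 tested genes 12 were above 0, against 48.4% of all genes, with a median log2 fold change of 0.16 against -0.01 over all genes. Of the 16, 6 lay above sham in every OVX library and 0 below, as did 7.42% and 7.8% of all genes. At an unadjusted p under 0.05 (limma) there were 4, all higher in OVX, against 3.46% of all genes higher. The 4 were Fcer1g, Fcgr3, Mapk14 and Lyn. Fcer1g, the signalling chain of activating Fc receptors, was at 326, 337 and 555 scaled TPM in OVX, against 211, 223 and 190 in sham, with OVX replicate 3 the highest (log2 fold change 0.92, SE 0.22, limma adjusted p = 0.490). Fcgr3, an Fc receptor for IgG that uses that chain and is also on the macrophage list, was at 53.9, 64.0 and 67.5 in OVX, against 36.2, 46.9 and 34.8 in sham (0.65, SE 0.17, limma adjusted p = 0.549). Both lay above every sham library in all 3 OVX libraries. Mapk14, the p38 kinase that phosphorylates p47phox, averaged 3.14 ± 0.764 in OVX and 1.74 ± 0.120 in sham, and Lyn, a kinase downstream of Fc receptors, averaged 6.43 ± 0.638 in OVX and 4.74 ± 0.365 in sham. Without OVX replicate 3 the median of the list was 0.34, with 9 genes above 0. On TPM as deposited it was 0.03, against -0.15 over all genes.

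The lists for the supply of NADPH, for the handling of superoxide and peroxide and for the transcription factors of the oxidase genes had medians below 0 with all libraries in the fit. Over all genes 48.4% were above 0, and the median was -0.01, or -0.15 on TPM as deposited. In the NADPH supply 4 of 11 tested genes were above 0 (median -0.10), including Me1 and Me2, malic enzymes that make NADPH. Without OVX replicate 3 it was 9 of 11 (median 0.07), and on TPM as deposited the median was -0.24. Among the superoxide and peroxide genes 5 of 17 were above 0 (median -0.17, with -0.02 without OVX replicate 3 and -0.33 on TPM as deposited). Sod2, the mitochondrial superoxide dismutase, averaged 468 ± 74.0 scaled TPM in OVX and 585 ± 46.1 in sham (log2 fold change -0.33, SE 0.16, limma adjusted p = 0.715), lower in every OVX library, as were Prdx2 and Nqo1. Prdx5, a peroxiredoxin, was at 435 ± 42.2 in OVX and 364 ± 10.2 in sham, higher in every OVX library. Of the transcription factors 2 of 6 tested genes were above 0 (median -0.19, and -0.086 without OVX replicate 3 or -0.34 on TPM as deposited). Runx1 was lower in every OVX library, at 10.6 ± 0.874 in OVX and 13.1 ± 0.589 in sham, and Elf1 higher, at 6.76 ± 1.63 in OVX and 4.92 ± 0.299 in sham.

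**Figure D4:**
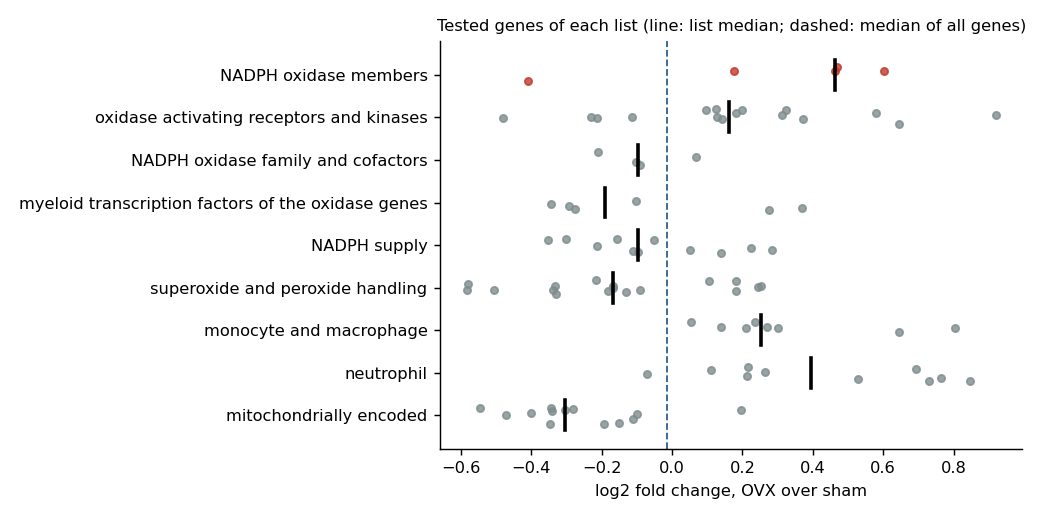
Log2 fold change, OVX over sham, of each tested gene of the members and of the lists around them, with the median of each. The activating receptors and kinases have a median of 0.16 and the superoxide and peroxide genes of -0.17, against -0.01 over all genes tested.

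Genes whose profile over the 6 libraries was nearest to a member's were found by the root mean square difference of centred log2 values among genes averaging 10 scaled TPM or more. Nearest to Ncf1 were Vmp1, an autophagy membrane protein (0.0522, of 3211 genes compared), Lcp1, the actin bundler of leukocytes, and Gadd45a, a stress response gene. Vmp1 was at 71.5, 70.2 and 65.9 scaled TPM in OVX, against 43.2, 47.4 and 44.9 in sham, separating the groups as Ncf1 did. Nearest to Cyba were Rab5if, Nt5e (the ectonucleotidase CD73) and Myl12b, a myosin light chain (0.0526 to 0.0677). The Cybb profile was nearest to Ppp3ca, a calcineurin subunit, Sox9, the transcription factor of cartilage, and Map1lc3b, an autophagosome protein. Ppp3ca was at 13.9, 13.8 and 23.7 in OVX, against 12.0, 11.6 and 11.3 in sham, with the same high OVX replicate 3. Rac1 was nearest to Ddx47, an RNA helicase (0.0364), Metrnl and Lap3. Rac2 was nearest to Apoe, an apolipoprotein (0.0594), Arhgdib, a haematopoietic inhibitor that holds Rac2 in the cytosol, and Tmem97. Arhgdib was at 287, 223 and 136 in OVX, against 158, 176 and 178 in sham, in the order of libraries that Rac2 had within OVX. The likeness is a description over 6 libraries of 2 groups.

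**Figure D5:**
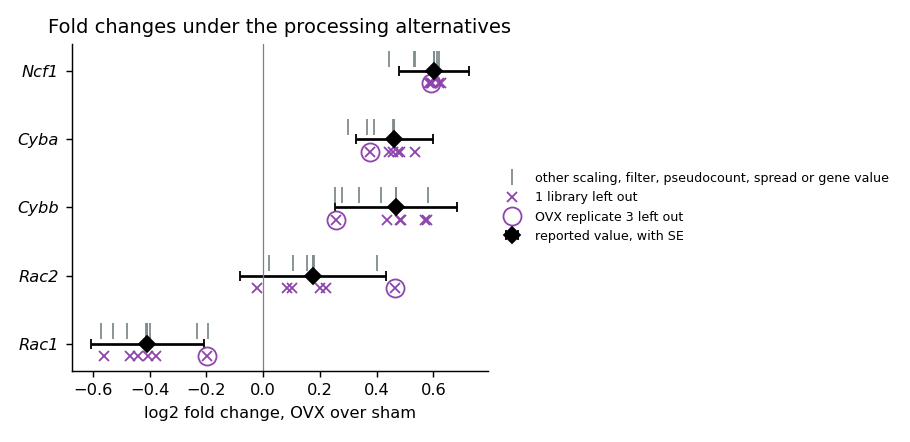
Log2 fold change, OVX over sham, of the 5 listed members under each processing setting, beside the reported value with its SE. Ncf1 stays between 0.44 and 0.63, Rac1 between -0.57 and -0.19, and Rac2 between -0.020 and 0.46.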

How the data were processed

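Total RNA of sorted Omacs was sequenced from directional libraries. The authors deposited 1 table with TPM per transcript and library; the submitters' processing notes name HISAT2 2.0.5 and featureCounts 1.5.0-p3, and the methods name trimming with fastp and the mm10 genome. The step from these to TPM per transcript is not described in the sources used here. TPM keep no read counts, so depth and counting error are unknown. The table also holds 6 deposited columns of the authors' own comparison (a mean signal level, log2 fold change and its error, a test score, p-value and adjusted p-value), which were not used. Of 23115 transcripts 22992 have an identifier in GENCODE M21, and 2202 are at 0 TPM in all libraries.

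Groups came from the sample titles. TPM were summed per gene over listed transcripts, and a transcript that is not listed adds nothing to its gene. Scaling was by an unweighted trimmed mean of M values (trimming 30% of M and 5% of A at either end, with OVX replicate 2 as reference), with factors of 0.998, 1.006 and 0.841 for OVX and 1.044, 0.994 and 1.141 for sham. Genes averaging 1 scaled TPM or more were fitted on log2(scaled TPM + 1) with limma 3.58.1 (R 4.3.3), with a trend in the empirical Bayes step and no term but group. The p-values were adjusted by Benjamini-Hochberg over all genes in the fit. Within-library ratios were compared by two-sided exact permutation tests. The fit was tested on simulated data with the gene means and within-group spread of these libraries. It called 27% of genes changed 2-fold, 70.5% of those changed 4-fold and 6 unchanged genes. A gene that was not called may therefore still differ. Members and lists were chosen with earlier results of these data known, and the study named an NADPH oxidase pathway from these same samples. A withheld item and the results that need it are not reported here. Named are all listed members, up to 4 genes per list by p (by abundance for cell type and quality lists) and the 3 nearest profiles per member. Itgam, Cd68, Adgre1, Csf1r, Mpo, Ltf, Prtn3, Ctsg, Elane, Mmp8, Mmp9, Cybc1 and Hvcn1 were named beside these after their values were seen. Alternatives were other scalings, filters, pseudocounts, spread estimates and gene sums, a replicate block, and leaving out each library.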

Additional observations from a re-analysis of the deposited data

How the results depend on the processing

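The 5 members kept their side of the threshold under every alternative in which they were tested, and 88 of 89 member values kept their direction. Cybb fell under the minimum mean of 5 scaled TPM and was not in that fit. Log2 fold changes ranged over all alternatives from 0.44 to 0.63 for Ncf1 (limma adjusted p 0.0518, with library weights, to 0.977), 0.30 to 0.53 for Cyba, 0.25 to 0.58 for Cybb, -0.57 to -0.19 for Rac1 and -0.020 to 0.46 for Rac2, which was reversed without OVX replicate 1 (-0.020, gene and transcript Rac2-201). The scaling shifts all genes: their median log2 fold change was -0.01 as reported, -0.15 on TPM as deposited and -0.07 with equal listed totals, and genes at an unadjusted p under 0.05 were 283 higher and 280 lower as reported, 127 and 496 as deposited, 176 and 442 with equal totals, 562 and 569 with library weights, 176 and 129 with a minimum mean of 5, and 180 to 380 and 138 to 439 leaving out one library. With the replicate number as a block no member was called (limma adjusted p 0.893 to 0.916) and 0 genes were called higher. The deviations of same-numbered libraries from their group means had r = -0.0559, -0.127 and -0.251. With 3 libraries per group these values cannot tell whether the numbers pair the samples, and the labels do not say.

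Genes called higher, 1 as reported, were 0 with a pseudocount of 0.1, 20 with library weights, 2 with the most abundant transcript per gene, 0 with protein-coding transcripts only, and 0 to 7 leaving out one library; genes called lower, 0 as reported, were 7 with library weights and 0 to 2 leaving out one library. Transcripts called were 2 higher and 1 lower without the trend, and 0 to 2 higher and 0 to 1 lower leaving out one library. Leaving out one library, Rac1-201 ranged from -1.18 to 0.12, reversed without OVX replicate 3. Of 140 ratio values 4 were reversed: Cybb to Cyba without OVX replicate 3 (-0.035), and Rac2 to Cd68 with medians (0.12), without OVX replicate 3 (0.20) and without sham replicate 3 (0.03), with a lowest value of -0.22 without OVX replicate 1. The alternatives with protein-coding transcripts only and with coding Rac1 only were chosen after seeing the data. The Ncf1 to Ncf4 ratio was not run. The causes of these changes were not tested.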
